A study of Mus musculus with 2 samples.

Results

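Nuclear receptors are transcription factors that mostly answer to small lipophilic ligands, and the genes for 42 of them and of their coregulators were followed here in sorted stromal cells of mouse fat. They were chosen by gene name: 33 receptors and 9 coregulators. Of these names, 41 had a row among 23647 genes, and 36 had a mean of at least 1 CPM (1 count in 1000000 of the library total) over both libraries, the level from which 13684 genes in all were compared. Vdr, Esr2, Pgr, Esrrb and Ppargc1a stayed below that level, and Nr5a2 was not analysed here.

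Polyadenylated RNA came from cells positive for PDGFRa, a marker of adipose progenitors. They were stained for sorting out of the stromal vascular fraction (the cells that collagenase frees and centrifugation parts from fat cells) of inguinal white fat. Both groups were mice labelled male, of 3 weeks of age, that had received doxycycline on postnatal day 1. The control group had the genotype Sox9 floxed (labelled WT), and the other group had Sox9 PreASKO (labelled KO). The cell type in which recombination was driven is not given in the sources used here. Each group was 1 library from 3 pooled mice, so the spread between animals is unknown and the genotypes were compared without a test or p-value. Every interval given covers only the error of counting, and each comparison is of libraries rather than of genotypes. In such bulk samples, fewer cells of a type and less RNA per cell cannot be told apart.

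Where a pair of values is given, the floxed library comes first. Total counts were 61761645 for floxed and 37597048 for PreASKO, so low values are less precise in the latter. Sox9 itself stood at 28.6 CPM in floxed against 17.0 in PreASKO, and Pdgfra, the sorting marker, at 716 and 603 CPM. The 13 markers of adipose stromal precursors summed to 31623 and 31717 CPM, but single markers differed. Of them, 6 were higher and 7 lower in PreASKO, with Ly6a at 2171 and 2840 CPM and Pi16 at 2226 and 1306 CPM. Pi16 was the sole one past 1.5-fold, in the lower direction (7.69%, all genes 8.18%). Xist, the RNA of the inactive X chromosome, was near 0 in floxed (3.24 CPM) but high in PreASKO (745), whereas the labels call both pools male. The Y-linked genes Ddx3y (40.6 and 39.5 CPM), Eif2s3y (17.6 and 10.98), Kdm5d (20.2 and 10.9) and Uty (12.5 and 9.12) were present in both. The sex of the pooled animals was not tested. A difference in it between the libraries cannot be told apart from one of genotype. With 1 library per group no result can be given without the PreASKO library. All 14 measured macrophage markers were higher in PreASKO, with a summed level of 1376 CPM in floxed against 2639 in PreASKO and none at 0. Endothelial markers summed to 482 and 501 CPM, most of it from Lyve1 (239 and 247) and Tek (154 and 147), with none at 0. Of 11 measured, 9 were higher and 6 past 1.5-fold higher (54.5%, all genes 7.89%), with a median log2 difference of 0.66. Markers of mature fat cells summed to 138 and 66.8 CPM, with all 8 measured genes lower and Lep at 0 in floxed. The other marker lists summed to 146 and 134 CPM for mural cells, 5.51 and 8.40 for T and NK cells, 1.65 and 3.54 for B cells, 32.2 and 64.6 for erythroid cells and 10.3 and 10.1 for skeletal muscle. Nkg7, Myh1, Msln, Sox10 and Epcam were at 0 in floxed, and Cd8a, Klrb1c, Ckm, Pax7 and Krt14 in PreASKO. These lists summed to 11.8 and 8.70 CPM for mesothelial, 50.1 and 52.1 for Schwann and 0.194 and 0.638 for epithelial cells.

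A nuclear receptor binds DNA through a zinc-finger domain and switches partners on the gene: without agonist many receptors hold a corepressor complex built on NCoR, and with agonist they exchange it for coactivators of the p160 family, the Mediator subunit MED1 and PGC-1 proteins. RXR is the shared dimer partner of the PPAR, RAR, thyroid hormone, vitamin D and LXR receptors, whereas steroid receptors act as homodimers and NR4A proteins can act without a ligand. In fat, PPARG with RXRA drives the conversion of precursors into lipid-storing cells, and COUP-TF receptors are described as restraints on that step.

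The promoters of the NR4A genes and of Pparg are shown because the NR4A genes share a dense sequence feature while their levels differed in direction, and because Pparg has several start sites that the counts do not separate. Sequences are RefSeq promoters of GRCm38.p6, the assembly on which mm10 is based, each giving the 250 bases before a start site, 5′ to 3′ on the strand of the gene. For the NR4A genes, capitals mark TGACG on either strand (CGTCA on the other), the core of the cyclic AMP response element through which these genes are known to respond to CREB. The window of Nr4a1 lies at chr15:101266596-101266845 (plus strand), that of Nr4a2 at chr2:57124004-57124253 (minus strand) and that of Nr4a3 at chr4:48045055-48045304 (plus strand). The annotated genes Nr4a1 (from 101253902) and Nr4a3 (from 48045078) begin upstream of the start used.
Nr4a1: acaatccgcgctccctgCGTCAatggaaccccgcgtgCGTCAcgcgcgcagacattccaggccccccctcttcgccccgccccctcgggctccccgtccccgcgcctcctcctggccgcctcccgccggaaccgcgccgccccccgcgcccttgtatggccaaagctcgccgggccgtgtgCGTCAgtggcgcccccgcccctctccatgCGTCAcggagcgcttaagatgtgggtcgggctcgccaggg
Nr4a2: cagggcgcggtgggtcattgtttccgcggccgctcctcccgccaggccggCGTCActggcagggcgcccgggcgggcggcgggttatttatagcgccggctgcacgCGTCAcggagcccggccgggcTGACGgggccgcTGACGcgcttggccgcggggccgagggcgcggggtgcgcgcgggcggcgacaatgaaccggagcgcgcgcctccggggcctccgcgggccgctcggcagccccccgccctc
Nr4a3: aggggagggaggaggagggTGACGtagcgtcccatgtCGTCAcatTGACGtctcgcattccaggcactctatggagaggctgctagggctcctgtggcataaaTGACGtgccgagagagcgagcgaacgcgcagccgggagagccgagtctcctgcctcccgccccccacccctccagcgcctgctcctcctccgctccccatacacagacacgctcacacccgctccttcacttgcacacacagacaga
Each of these windows held 4 matches, and as they were shown because of this feature, the number is no test of the group. Of 32851 promoter windows in the table, 17.8% held at least 1 match over the same 250 bases, 3.90% at least 2, and 45 windows (0.137%) at least 4.

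For Pparg, capitals mark AGGTCA, the core element that nuclear receptors bind, on either strand. Of 3 starts with a window, those of the most upstream (chr6:115360894-115361143) and the most downstream (chr6:115421816-115422065) are printed, both on the plus strand. The annotated gene begins at 115360879, before the upstream window. From the most downstream start the fat-cell isoform Pparg2 is made.
Pparg upstream start: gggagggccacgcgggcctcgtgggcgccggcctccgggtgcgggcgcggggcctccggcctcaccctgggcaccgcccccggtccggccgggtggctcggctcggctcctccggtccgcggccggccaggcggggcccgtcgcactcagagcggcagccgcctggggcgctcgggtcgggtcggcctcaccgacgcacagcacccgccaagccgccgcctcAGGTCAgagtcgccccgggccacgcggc
Pparg downstream start: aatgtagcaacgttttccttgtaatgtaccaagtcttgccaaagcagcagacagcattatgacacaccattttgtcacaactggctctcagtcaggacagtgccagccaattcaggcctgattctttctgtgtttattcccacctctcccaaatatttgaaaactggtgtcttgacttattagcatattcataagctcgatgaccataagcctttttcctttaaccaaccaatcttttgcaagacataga
The upstream window held 1 match, which began 28 bases before the start, and the downstream window none. The third start of Pparg, which lies between them and is not printed, held 1 match 9 bases before it. Over all promoter windows of 300 bases (250 before and 50 after a start), 37 of the 41 genes with a row were matched, with 60 windows. AGGTCA occurred in 9 of these 60 windows (15%) against 16.3% of all windows, and its direct repeat with 1 base between the copies in 0 of 60 against 0.0396%. AAAGGTCA, the NR4A monomer element, which contains AGGTCA, occurred in 2 of 60 (3.33%) against 1.51%, in promoters of Rxra and Rxrg. TGACG occurred in 18 of 60 (30%) against 20.8%, and the full palindrome TGACGTCA, which contains it, in 1 of 60 against 1.79%. ACAATG and ACAAAG, forms bound by SOX proteins, occurred in 4 and 6 windows (6.67% and 10%) against 12.6% and 18.7%, and TGACAG, bound by MEIS proteins, in 15 (25%) against 19.2%. Both strands were searched for each motif, and a match is a description of the letters only.

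The nuclear receptor and coregulator genes lay close to the rest of the transcriptome. On the scale log2(CPM + 1), PreASKO minus floxed, their median difference was -0.05, against -0.04 over all 13684 genes. Of 36 genes, 17 were higher (all genes 45.5%) and 19 lower (all genes 54.5%) in PreASKO. Pparg, Thra, Med1 and Nr3c2 were at least 1.5-fold lower, 4 of 36 or 11.1% against 8.18% of all genes. Nr2f1, Nr4a3 and Nr6a1 were at least 1.5-fold higher, 3 of 36 or 8.33% against 7.89% of all genes. At 2-fold, only Nr3c2 was lower (2.78%, all genes 1.52%) and only Nr2f1 and Nr6a1 were higher (5.56%, all genes 2.11%). The shares at 1.5-fold are near those of all genes, and those at 2-fold, though larger, rest on 1 and 2 genes. They single out no property of the group, so single genes are described. The raw count alone reached 1 CPM for 19 of the 36, and 8 of these 19 changed sign: Ppard, Rxrg, Rarb, Rorb, Nr2f2, Nr2f6, Esr1 and Ncoa4. How many of all genes changed sign in it was not computed, so this cannot be called a trait of the group. The interval of the CPM ratio lay below 1 for 17 genes, above 1 for 12 and included 1 for 7. The same counts over all genes were not computed, so these numbers do not set the group apart, and the intervals cover counting error only.

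**Figure D1:**
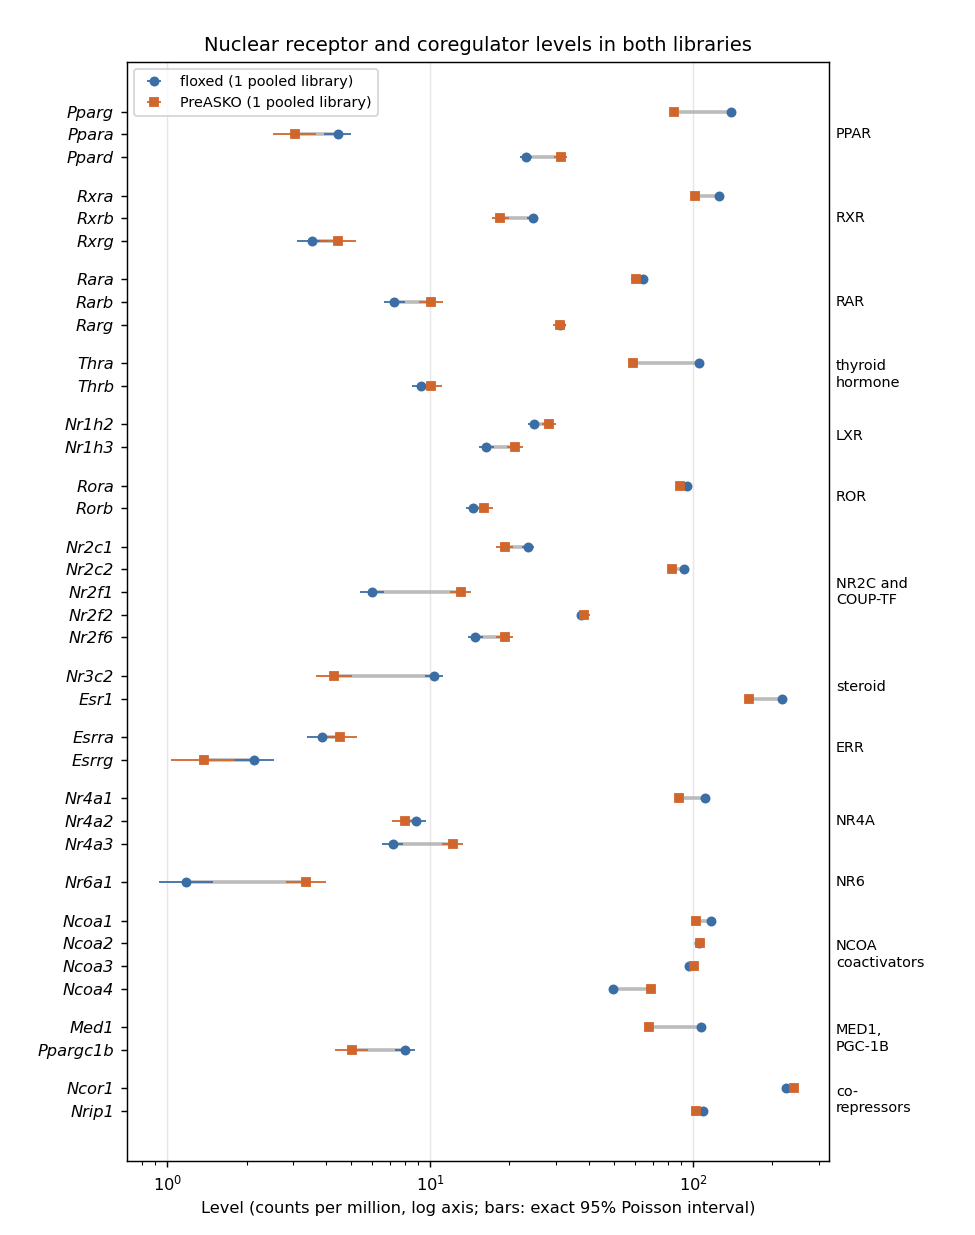
Level of each of the 36 genes in the floxed (circles) and PreASKO (squares) library, in CPM on a log axis, with exact 95% Poisson intervals and genes ordered by role. Grey lines join the libraries: Pparg, Thra, Med1 and Nr3c2 lie well to the left in PreASKO, Nr2f1, Nr4a3 and Nr6a1 to the right, and levels run from 1.18 CPM (Nr6a1, floxed) to 243 CPM (Ncor1, PreASKO).

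**Figure D2:**
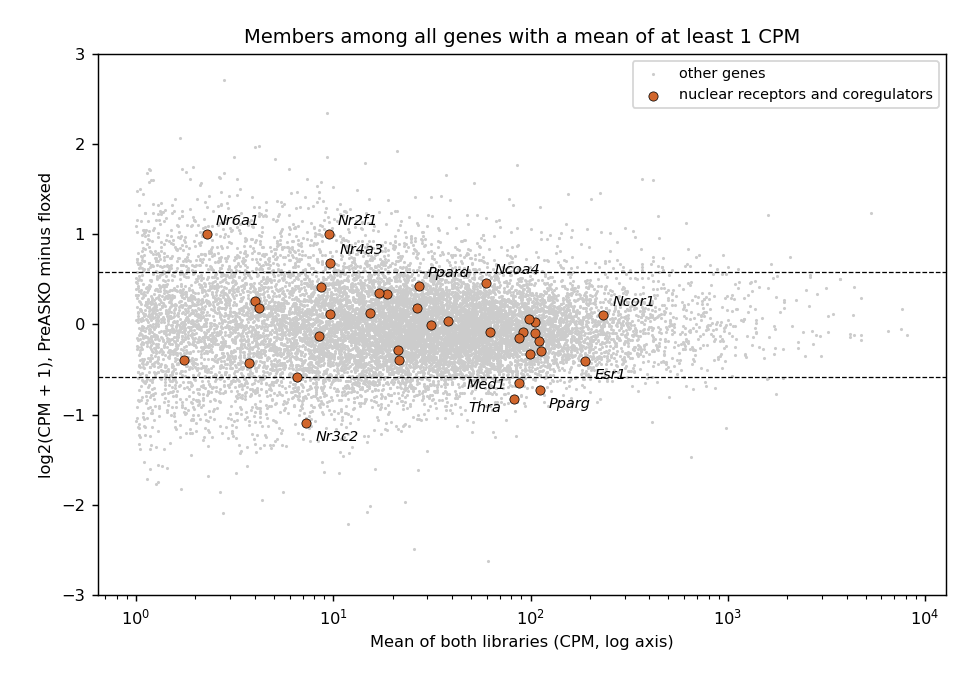
Difference in log2(CPM + 1), PreASKO minus floxed, against the mean CPM of both libraries (log axis) for 13684 genes in grey, with nuclear receptors and coregulators in orange and 1.5-fold as dashed lines. The orange points spread on both sides of 0 within the grey cloud; 1 gene (Xist) lies beyond the plotted range of 3.

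The PPAR receptors bind fatty acids and their derivatives. Pparg, the main driver of fat cell formation (chr6:115360879-115490404, with Entrez ID 19016; gene positions are those of GRCm38), had 139 CPM in floxed (interval 136 to 142) against 84.1 in PreASKO (81.2 to 87.1). It was lower in PreASKO, with a CPM ratio of 0.603 (0.579 to 0.629) and a log2 difference of -0.72, below those of 95.3% of all genes. Ppard, the widely expressed form tied to fatty acid oxidation, went the other way, at 23.1 CPM in floxed against 31.3 in PreASKO, a ratio of 1.36 (1.254 to 1.47). Ppara, the form best known from liver, was low in both, at 4.45 and 3.06 CPM. Per kilobase of exon, Pparg made up 87.6% of the family in floxed and 77.3% in PreASKO, and Ppard 10.5% and 20.8%. Most counts of Pparg lay in the repeat-distributed column, one of the 2 deposited counts that are summed here. In the raw count, which held only 46 and 27 of its counts, its log2 difference was -0.16, and that of Ppard was -0.23.

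RXR genes, the common dimer partners, were close between libraries. Rxra, the main form in fat (ID 20181; chromosome 2, 27676445 to 27763319), stood at 125 CPM in floxed (123 to 128) and 102 CPM in PreASKO (98.6 to 105), a ratio of 0.813 (0.782 to 0.845). Rxrb stood at 24.5 and 18.5 CPM, with a ratio of 0.754 (0.688 to 0.825). Rxrg was low in both, at 3.56 and 4.47 CPM, with an interval of the ratio from 1.02 to 1.54. None of them reached 1.5-fold. Summed per kilobase of exon, the RXR genes stood at 34.6 CPM per kb in floxed and 28.3 in PreASKO, and the 10 measured genes of their PPAR, RAR, thyroid hormone and LXR partners at 148 and 116.

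Targets of PPARG in fat cells were mostly lower in PreASKO. Of 18 measured genes from a list of 21, 14 were lower and 4 higher, with a median log2 difference of -0.26 against -0.04 over all genes, and 7 were at least 1.5-fold lower (38.9%, all genes 8.18%) against 2 higher (11.1%, all genes 7.89%). Gpd1, which supplies glycerol phosphate for triglyceride, stood at 25.1 and 5.45 CPM, Adipoq, the gene of adiponectin, at 41.2 and 12.8 CPM, and Lipe, the gene of hormone-sensitive lipase, at 22.3 and 11.5 CPM. Past 1.5-fold higher were Plin4, at 13.4 and 24.5 CPM, and Fabp4, at 216 and 443 CPM. The measured genes of the list summed to 840 and 1007 CPM. Fabp4 is a fatty acid carrier that macrophages and endothelial cells also make, and macrophage markers summed to 1376 and 2639 CPM. This list shares 9 of its 21 genes with the markers of mature fat cells, and the part of either cell type in these values was not tested. Targets of PPARA and PPARD had a median of 0.03, with 10 of 15 higher (all genes 45.5%). Past 1.5-fold was 1 in each direction (6.67%, all genes 7.89% higher and 8.18% lower). Higher genes included Angptl4, an inhibitor of lipoprotein lipase, at 253 and 385 CPM, and Pdk4, a brake on pyruvate oxidation, at 13.1 and 16.8 CPM. Hadhb, an enzyme of fatty acid oxidation, stood at 69.3 and 54.7 CPM.

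**Figure D3:**
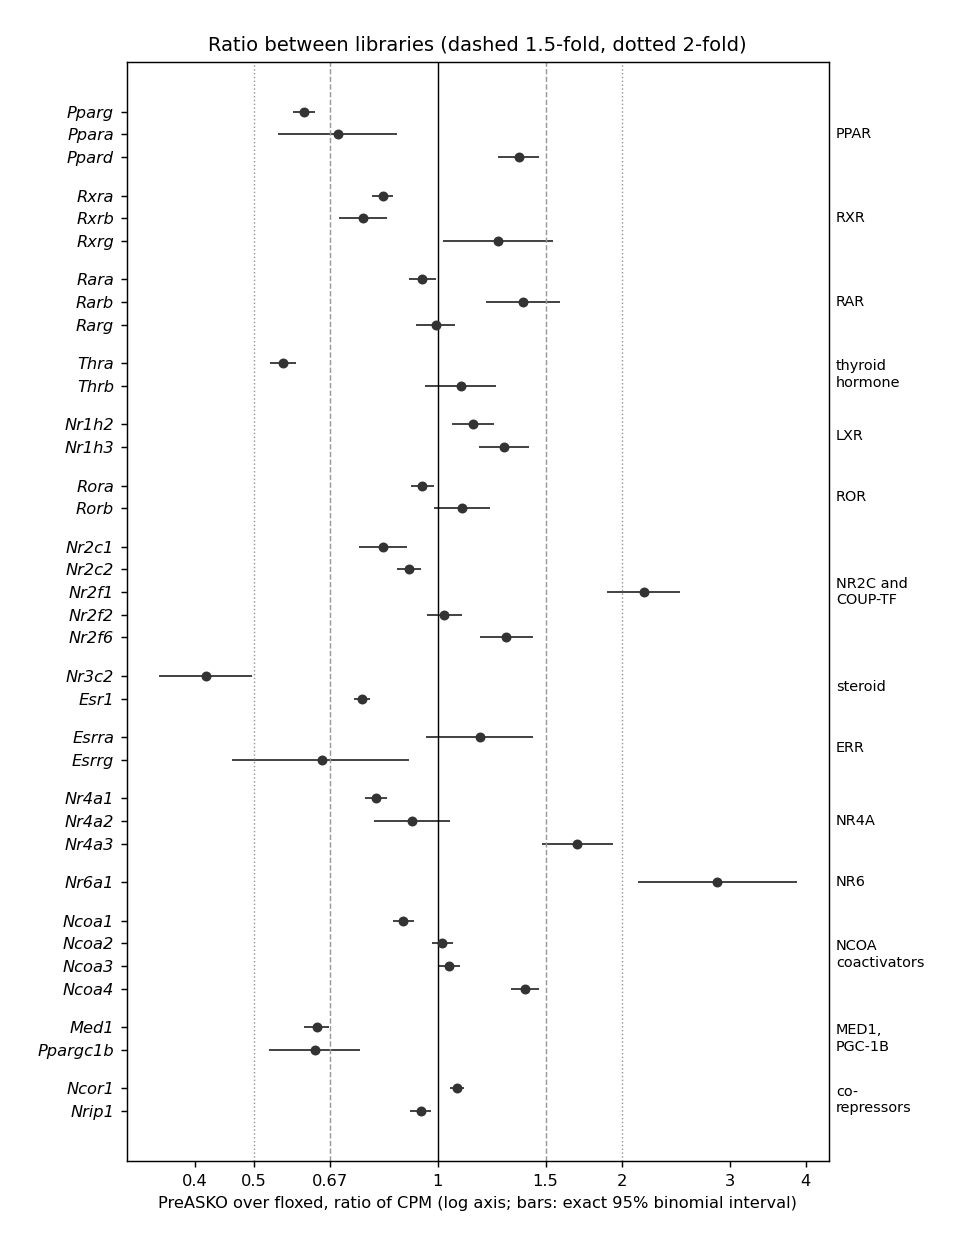
CPM ratio of PreASKO over floxed for each of the 36 genes on a log axis with exact 95% binomial intervals, with dashed lines at 1.5-fold and dotted lines at 2-fold. Ppargc1b and Esrrg lie past the dashed line on this scale but not on log2(CPM + 1). Within families the points separate: Pparg at 0.603 and Ppard at 1.36, Thra at 0.559 and Thrb at 1.09, Nr4a1 at 0.792 and Nr4a3 at 1.69.

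The RAR receptors bind retinoic acid, which opposes fat cell formation in cultured precursors. Rara stood at 64.3 CPM in floxed against 60.6 in PreASKO, and Rarg at 31.2 and 31.0 CPM, so that both barely differed. The sign of the Rarg difference turned with the scaling, from -0.01 to 0.03 with median-of-ratios size factors. Rarb, itself a classic retinoic acid target, stood at 7.30 and 10.1 CPM, with a ratio of 1.38 (1.20 to 1.59). Its exons overlap those of Top2b on the opposite strand by 52.9% of their length. Top2b stood at 85.6 and 111 CPM, and the use of strand is not stated, so the value of Rarb is uncertain. Of 7 measured retinoic acid targets, 4 were higher and 3 lower, with a median of 0.21. Past 1.5-fold were 3 higher (42.9%, all genes 7.89%) and 0 lower (all genes 8.18%): Cyp26b1, which degrades retinoic acid, at 9.49 and 17.7 CPM, Tgm2, a transglutaminase, at 16.7 and 30.2 CPM, and Dhrs3, which reduces retinaldehyde, at 63.8 and 99.6 CPM. Rarres2, the gene of the adipokine chemerin, stood at 301 and 348 CPM.

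Thra, the predominant thyroid hormone receptor gene of these cells (ID 21833; chromosome 11, 98740776 to 98769006), stood at 106 CPM in floxed (103 to 108) and 59.0 CPM in PreASKO (56.6 to 61.5). Its ratio of 0.559 (0.532 to 0.586) was the lowest among genes with a mean above 50 CPM in the group, and its log2 difference of -0.83 was below those of 96.97% of all genes. Thrb stood at 9.23 and 10.1 CPM, with an interval of the ratio from 0.954 to 1.24. Thra made up 96.1% of the pair per kilobase in floxed and 92.6% in PreASKO. Exons of Thra overlap those of Nr1d1 on the opposite strand by 263 bases, 8.33% of their length. Nr1d1, the clock repressor REV-ERB alpha, was also lower in PreASKO, at 134 and 90.5 CPM, and which of the genes the shared reads came from cannot be told apart without strand. Targets of thyroid hormone and vitamin D were split, with 3 of 6 higher and a median of 0.03. Past 1.5-fold was 1 in each direction (16.7%, all genes 7.89% higher and 8.18% lower). Klf9 stood at 132 and 155 CPM, Me1 (malic enzyme) at 60.7 and 49.0 CPM, and Hr, the hairless corepressor, at 53.3 and 48.7 CPM. Vdr, the vitamin D receptor gene, was barely detected, with 35 counts in floxed and 11 in PreASKO.

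The LXR receptors sense oxysterols and control cholesterol export. Nr1h3 (LXR alpha), which is high in macrophages and fat, stood at 16.4 CPM in floxed against 20.99 in PreASKO, a ratio of 1.28 (1.17 to 1.41). Nr1h2 (LXR beta), the ubiquitous form, stood at 24.7 and 28.2 CPM, with a ratio of 1.14 (1.05 to 1.23). Both were slightly higher in PreASKO and neither reached 1.5-fold. Of 12 targets, 6 were higher and 6 lower, with 2 higher (16.7%, all genes 7.89%) and 3 lower (25%, all genes 8.18%) past 1.5-fold and a median of 0.15. Lower were genes of fatty acid synthesis, with Scd2 at 563 and 266 CPM, Fasn at 210 and 115 CPM and their regulator Srebf1 at 87.2 and 47.7 CPM. Arl4c, a small GTPase tied to cholesterol export, was higher at 16.9 and 32.6 CPM, and the log2 differences of the exporters Abca1 and Abcg1 and of Apoe were 0.33, 0.58 and 0.44. Macrophage markers, whose cells use the export genes, summed to 1376 and 2639 CPM, and their part in these values was not tested.

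**Figure D4:**
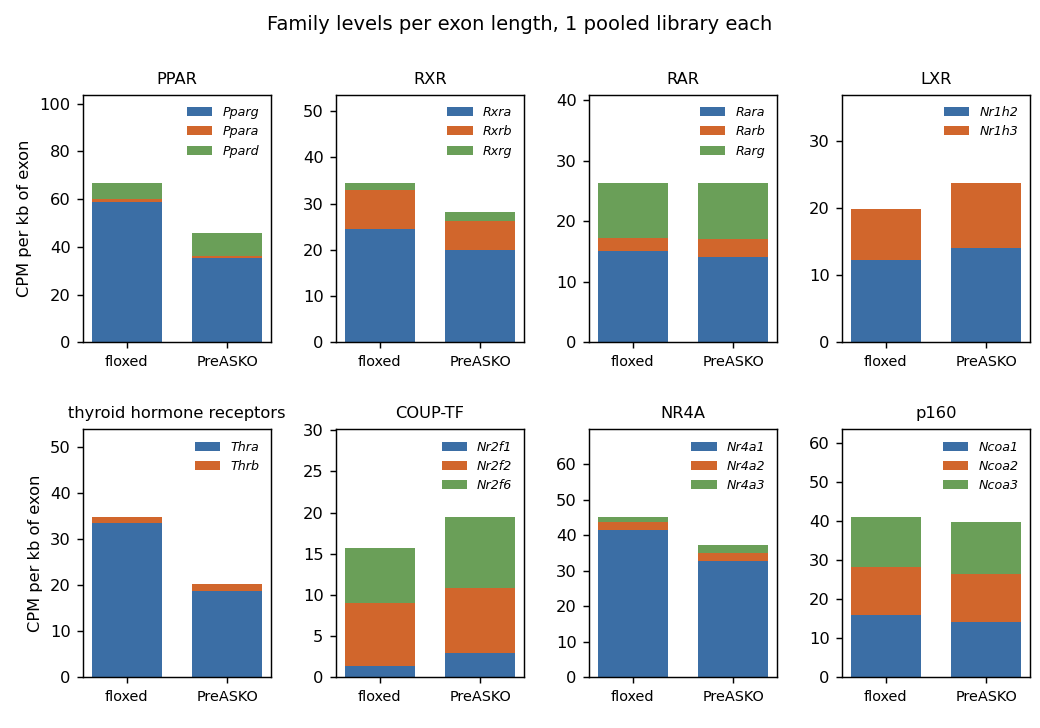
Stacked levels per kilobase of exon (CPM per kb) of 8 families in the floxed and PreASKO library, 1 pooled library each and no error bar. The PPAR column is 66.9 in floxed and 45.8 in PreASKO and the thyroid hormone receptor column 34.8 and 20.2, whereas the RAR columns stand level at 26.4 and 26.3 and the COUP-TF column is higher in PreASKO at 19.4 against 15.7.

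Nr2f1 (COUP-TFI; ID 13865; chromosome 13, 78188971 to 78198873), an orphan receptor of mesenchymal and neural development, stood at 6.01 CPM in floxed (5.41 to 6.65) and 13.03 CPM in PreASKO (11.9 to 14.2). Its ratio of 2.17 (1.89 to 2.49) placed it above 97.9% of all genes on the log2 scale. Its relative Nr2f2 (COUP-TFII), described as an inhibitor of Pparg in precursors, did not show this: it stood at 37.5 and 38.4 CPM, with a ratio of 1.02 (0.959 to 1.10). Nr2f6 stood at 14.8 and 19.2 CPM, with a ratio of 1.29 (1.17 to 1.43), with 41.2% of its exon length overlapping Ocel1 on the opposite strand. Per kilobase, Nr2f1 was 8.44% of these genes in floxed and 14.8% in PreASKO. Endothelial cells, which also use Nr2f2, had 6 of 11 measured markers past 1.5-fold higher (54.5%, all genes 7.89%). Among these were the low Pecam1 (2.14 and 4.15 CPM) and Cdh5 (3.63 and 7.42 CPM). The abundant markers Lyve1 (239 and 247 CPM) and Tek (154 and 147 CPM) were close, and the list summed to 482 and 501 CPM. The part of endothelial cells was not tested. The testicular receptors Nr2c1 and Nr2c2, repressors that bind direct repeats, stood at 23.6 and 19.2 CPM and at 92.5 and 82.9 CPM. Both were slightly lower in PreASKO, and 43.5% of the exon length of Nr2c2 overlaps Mrps25 on the opposite strand.

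Among steroid receptors, Nr3c2, the mineralocorticoid receptor gene (ID 110784; chromosome 8, 76898083 to 77245012), had the lowest ratio of the measured group. It stood at 10.3 CPM in floxed (9.53 to 11.1) and 4.31 CPM in PreASKO (3.67 to 5.03), on 637 and 162 counts. The ratio was 0.418 (0.349 to 0.497), and its log2 difference of -1.09 was below those of 98.97% of all genes. Esr1, the estrogen receptor alpha gene, stood at 217 and 163 CPM, with a ratio of 0.752 (0.730 to 0.775). In its raw counts, 69 and 53, the difference turned to 0.15. Pgr had 16 and 19 counts. Esr2 had 5 counts in PreASKO and 0 in floxed, for which 3 counts set a limit of 0.0486 CPM. Of 6 measured targets of estrogen and progesterone, 3 were higher, with a median of -0.06. The chemokine gene Cxcl12 at 404 and 252 CPM was the sole one past 1.5-fold (16.7%, all genes 8.18% lower). Ctsd (cathepsin D), at 471 and 569 CPM, Xbp1, at 352 and 283 CPM, and Fkbp4, a chaperone of steroid receptors, at 145 and 128 CPM, differed less.

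The NR4A receptors are induced within minutes by hormones, stress and tissue handling, and their members differed in direction. Nr4a1 stood at 111 CPM in floxed against 87.9 in PreASKO, a ratio of 0.792 (0.760 to 0.826). Nr4a3 (ID 18124; chromosome 4, 48045078 to 48086447) went the other way, at 7.19 CPM in floxed (6.54 to 7.89) and 12.2 CPM in PreASKO (11.1 to 13.3), a ratio of 1.69 (1.48 to 1.93). Nr4a2 stood between them at 8.82 and 8.01 CPM, with an interval of the ratio from 0.786 to 1.05. Nr4a1 dominated the family, with 91.98% of the level per kilobase in floxed and 88.5% in PreASKO. The promoters printed for them, shown because of this feature, carried 4 TGACG matches each. A link between the matches and the levels was not tested. With a pseudocount of 5 CPM the difference of Nr4a3 was 0.49, below 1.5-fold. Other immediate early genes were as mixed: 10 of 18 were higher (all genes 45.5%), with a median of 0.15. Past 1.5-fold were 3 higher (16.7%, all genes 7.89%) and 2 lower (11.1%, all genes 8.18%). Higher genes included Zfp36, which destabilizes mRNA, at 3173 and 7478 CPM and the AP-1 subunit gene Jund (125 and 261), while Egr2, at 282 and 155 CPM, and Egr3, at 58.9 and 26.3 CPM, were lower. Macrophages use these genes too, and the part of their markers (1376 and 2639 CPM) was not tested.

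The remaining receptors had low counts or close levels. Nr6a1, the germ cell nuclear factor gene (ID 14536; chromosome 2, 38723369 to 38926461), had the highest CPM ratio of the group, 2.86 (2.13 to 3.87), but on only 73 counts in floxed and 127 in PreASKO. That is 1.18 CPM (0.926 to 1.49) and 3.38 CPM (2.82 to 4.02), and with a pseudocount of 5 CPM its log2 difference was 0.44, below 1.5-fold. Rora, a receptor tied to the clock, stood at 94.4 and 89.0 CPM and Rorb at 14.6 and 16.0 CPM. The estrogen-related receptors, which drive mitochondrial genes with PGC-1, were low: Esrra stood at 3.89 and 4.55 CPM and Esrrg at 2.14 and 1.38 CPM. Esrrb had 6 counts in floxed and 0 in PreASKO, for which 3 counts set a limit of 0.0798 CPM. Of 13 measured targets of these receptors and PGC-1, 11 were lower (all genes 54.5%), with a median of -0.10 (all genes -0.04). Atp5b, a subunit of ATP synthase, at 1919 and 1259 CPM was the sole one past 1.5-fold (7.69%, all genes 8.18% lower). Cs (citrate synthase) at 327 and 227 CPM, Idh3a at 67.3 and 48.7 CPM and Uqcrc1 at 74.5 and 54.3 CPM were lower by less. Of 6 measured receptors outside the group, 4 were lower (all genes 54.5%), with a median of -0.19. Past 1.5-fold was 1 in each direction (16.7%, all genes 7.89% higher and 8.18% lower). Nr1d2, the partner of Nr1d1, stood at 25.3 and 16.4 CPM and the glucocorticoid receptor gene Nr3c1 at 320 and 260 CPM.

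The p160 coactivators had close levels in both libraries. The genes Ncoa1, Ncoa2 and Ncoa3, histone acetyltransferase recruiters, stood at 117 and 103 CPM, 105 and 106 CPM, and 96.5 and 101 CPM. Their ratios ran from 0.878 (0.844 to 0.913) for Ncoa1 to 1.04 (1.0005 to 1.09) for Ncoa3. Ncoa4, which carries ferritin to the lysosome besides binding receptors, stood at 49.7 and 68.9 CPM, with a ratio of 1.39 (1.32 to 1.46).

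Med1, the Mediator subunit that receptors contact and that PPARG needs in fat cells (ID 19014; chromosome 11, 98152154 to 98193313), stood apart from them. It was at 107 CPM in floxed (104 to 110) and 67.8 CPM in PreASKO (65.2 to 70.5), a ratio of 0.634 (0.605 to 0.663), with a log2 difference of -0.65. In the raw count, which held 18 and 11 of its counts, the difference was -0.08. Ppargc1b (PGC-1 beta; ID 170826) stood at 7.998 CPM in floxed (7.31 to 8.74) and 5.03 CPM in PreASKO (4.34 to 5.80), a ratio of 0.628 (0.529 to 0.745), and its log2(CPM + 1) difference of -0.58 lay just short of 1.5-fold on that scale. Ppargc1a, the cold-induced PGC-1 alpha gene, was barely detected, with 30 and 25 counts. Of 23 coactivators outside the group, 17 were lower (all genes 54.5%) and 6 higher, with a median of -0.11 (all genes -0.04). Past 1.5-fold lower was 1 (4.35%, all genes 8.18%). Med24, another Mediator subunit, was the sole one past 1.5-fold at 39.2 and 25.0 CPM, followed by the arginine methyltransferase gene Prmt1 at 82.7 and 56.4 CPM, Med12 at 100.4 and 70.1 CPM and the histone methyltransferase gene Kmt2d at 80.1 and 59.8 CPM.

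Corepressors of the group barely differed. Ncor1, the scaffold that holds unliganded receptors silent, took the most counts of the group at 226 CPM in floxed against 243 in PreASKO, a ratio of 1.07 (1.05 to 1.10). Nrip1 (RIP140), a ligand-dependent corepressor of fat, stood at 109 and 102 CPM, with a ratio of 0.937 (0.9004 to 0.975). Of 16 other corepressors, 10 were lower (all genes 54.5%) and 6 higher, with a median of -0.21 (all genes -0.04). Past 1.5-fold lower was 1 (6.25%, all genes 8.18%). Hdac1, a histone deacetylase, was the sole one past 1.5-fold on log2(CPM + 1), at 123 and 65.2 CPM. The deacetylase gene Sirt1 stood at 18.4 and 12.1 CPM, past 1.5-fold in the CPM ratio (0.657) but not on that scale (-0.57). Tbl1x, a subunit of the NCoR complex, stood at 339 and 258 CPM, and Lcor at 49.3 and 37.5 CPM.

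**Figure D5:**
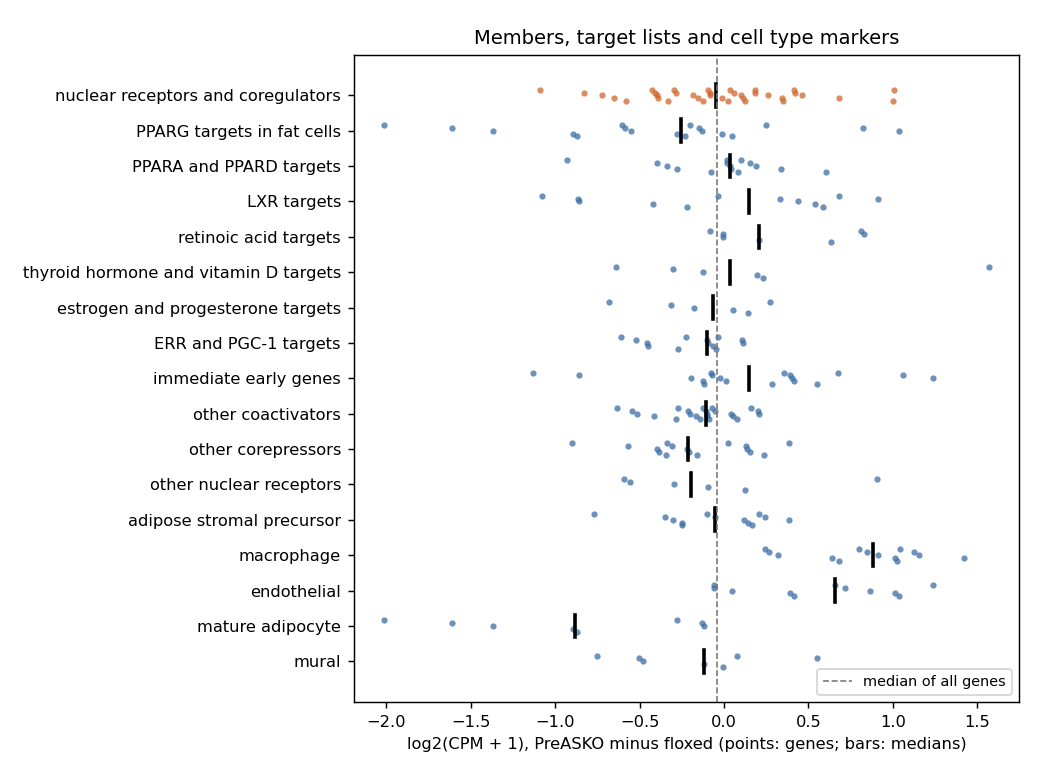
Difference in log2(CPM + 1), PreASKO minus floxed, of each measured gene (points) and the median (bars) for the group (orange) and for each list with at least 5 measured genes (blue), beside the median of all genes (dashed). The group's median of -0.05 lies on the dashed line, PPARG targets at -0.26 and mature fat cell markers at -0.88 lie left of it, and macrophage markers at 0.88 lie right of it.

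Levels can be compared between genes only per length. Per kilobase of exon, Pparg led in both libraries, at 58.6 CPM per kb in floxed and 35.4 in PreASKO, followed by Nr4a1 at 41.4 and 32.8. In floxed, Thra (33.4), Esr1 (28.0), Rxra (24.6) and Ncor1 (20.2) came next. In PreASKO, Ncor1 (21.7) and Esr1 (21.03) came before Rxra (20.0) and Thra (18.7). Med1 went from rank 10 of 36 to rank 19 and Ncoa4 from rank 14 to rank 7. Nr6a1 (0.195 and 0.557) and Esrrg (0.376 and 0.243) were the lowest. Lengths are the union of annotated exons, which overstates the length of genes whose cells use short isoforms.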

How the data were processed

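Counts per gene were deposited for 2 libraries of polyadenylated RNA, 1 per genotype. Per the submitters' processing notes the genome build was mm10; no source used here names the aligner, the counting program, the annotation or the strand setting. Per the file headers, the authors deposited a raw count in whole numbers, a repeat-distributed count, treated as an estimated count since it need not be whole, and a fold change (a ratio of unstated normalization). How reads were divided between both counts is not stated. The raw count held 21.9% and 24.4% of the sum, but under 5% in both libraries for 28 of the 36 measured genes.

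Both counts were summed per gene and divided by the library total (CPM). Of 23669 rows, 24 that carried a date were named by Entrez ID, and rows of 21 repeated IDs were summed. Differences are log2(CPM + 1) where both libraries averaged 1 CPM or more, which understates differences of low genes. Estimated counts were rounded for exact 95% Poisson intervals of levels and exact 95% binomial (Clopper-Pearson) intervals of ratios, and a count of 0 allows up to 3 counts; these cover counting error only. Exon lengths and overlaps come from GENCODE M21, gene coordinates and promoters from RefSeq (GRCm38.p6). Python 3.11.15 with scipy 1.17.1 was used, and edgeR 4.0.16 for the TMM factor alone. The ratio step was tested on simulated data.

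Every gene of the group is given, with full intervals for those averaging 5 CPM or more and past 1.5-fold, for Pparg and Rxra and for the 3 highest and 3 lowest; of 11 target and coregulator lists, up to 4 genes with the largest differences among those averaging 5 CPM or more. Marker lists numbered 12 and are given by their sums, with single markers named for some. Abca1, Abcg1, Apoe and Plin4 were named with their values known, as were the markers Lyve1, Tek, Pecam1, Cdh5, Pi16 and Ly6a. The genes and lists were chosen with earlier results of these data known.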

Additional observations from a re-analysis of the deposited data

How the results depend on the processing

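Counts and the median were recomputed with other pseudocounts, minimum levels, scalings and fold cutoffs, with each deposited count alone and with the fold in the authors' deposited table. Of 36 genes, 4 were at least 1.5-fold lower, against 9 of 21 with the raw count alone (42.9%, all genes 22.9%). At a cutoff of 25% more or the matching decrease, 10 were lower. At least 1.5-fold higher were 3, and 8 at that lower cutoff. With a pseudocount of 5 it was 1 (all genes 3.44%), and with the raw count alone 1 of 21 (4.76%, all genes 13.2%). At 2-fold, 1 was lower, against 0 with a pseudocount of 5, 4 with the raw count alone and 0 at a 3-fold cutoff. At 2-fold, 2 were higher, against 0 with a pseudocount of 5, 1 at a minimum mean of 5 CPM, 0 with the raw count alone and 0 at 3-fold. Shares of all genes were not computed at the lower cutoff, at 3-fold or at 2-fold in the other settings. Those counts therefore do not set the group apart. Pseudocounts, minimum levels and cutoffs act by construction. The median of -0.05 was -0.42 with the raw count alone (all genes -0.13), on the 21 genes that reached 1 CPM in it (19 of the 36, Vdr and Pgr), and the cause was not tested. With the repeat-distributed count alone it was 0.04, with the authors' deposited fold 0.01. In the other settings run, the counts stayed within 1.5 times and the median between -0.08 and -0.01.

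Thra, Nr3c2 and Nr2f1 stayed past 1.5-fold in each alternative that gave them a value, though the raw count gave none for Nr3c2, Nr2f1, Nr4a3 and Nr6a1. Pparg (-0.16) and Med1 (-0.08) fell short with the raw count alone, and Nr4a3 (0.49) and Nr6a1 (0.44) with a pseudocount of 5. No gene past 1.5-fold changed sign. Of 302 values of single genes, 271 stayed within the counting interval and 13 changed sign, of which 8 of 19 with the raw count alone: Ppard (-0.23), Rxrg (-0.37), Rarb (-0.38), Rorb (-1.13), Nr2f2 (-0.09), Nr2f6 (-0.42), Esr1 (0.15) and Ncoa4 (-0.05). The others were Rarg (0.02 to 0.04 in 4 settings) and Nr4a2 (0.04 with the repeat-distributed count alone). The 271 include every value under a changed minimum level. Such a value equals the main one by construction, because a minimum only sets which genes are kept. Changes of sign were not counted over all genes. No paired analysis was possible because each genotype has 1 library.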
